A study of Mus musculus with 6 samples.

Results

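The genes described here are 30 targets of the tumour suppressor p53 that carry out parts of its response, from DNA repair and death signalling to metabolism and arrest, and that lie outside the feedback loop of p53 with its own regulators. They were taken by symbol from the deposited table of 22740 protein-coding genes, and all 30 were found there. RNA was sequenced from B16, a pigmented mouse melanoma line that the series' design text calls B16-F10 and whose genotype label is negative for BRAF V600E. Cells were given the vehicle DMSO (3 libraries) or 1 uM CX-5461 (3 libraries) for 3 days. CX-5461 is known as a small-molecule inhibitor of RNA polymerase I that also stabilises G-quadruplex DNA, and no library of an untreated culture was analysed here. The samples are numbered as replicates 1 to 3 of each treatment, and the labels do not say whether the replicates were separate cultures. The p-values therefore measure the spread between these samples, which may be technical.

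In unstressed cells p53 is kept low by the ubiquitin ligase Mdm2. DNA damage or a disturbed nucleolus releases p53, which binds paired half-sites in DNA and raises the transcription of its targets. The targets outside the feedback loop include nucleotide excision repair factors, death receptors of the TNF receptor superfamily, regulators of the apoptosome and of AKT signalling, metabolic enzymes that limit oxidative stress, and growth-restraining factors. Many of them answer to other regulators as well, so a target's level is not a readout of p53 alone.

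The libraries held 17573990 to 22908309 counts. Levels are given in CPM (counts per 1000000 counts of a library, with library sizes scaled by TMM factors). A floor of 3 counts for a gene without reads equalled 0.135 to 0.173 CPM. It is given for scale and entered no value or test. All 7 melanocyte markers checked (Mitf, Sox10, Tyr, Tyrp1, Dct, Pmel and Mlana) were present, with a summed level of 22070 to 22920 CPM in the DMSO libraries and 28250 to 30540 CPM in the CX-5461 libraries. Of 11 markers of blood, endothelial, fibroblast, keratinocyte and epithelial cells, Cd3e, Cdh5 and Krt5 had no count in any library. Without Col1a1, the other 10 summed to 0.218 to 0.338 CPM under DMSO and 0.230 to 0.405 CPM under CX-5461. Col1a1 alone was higher, at 5.08 to 7.91 CPM under DMSO and 2.42 to 3.13 CPM under CX-5461. Replicate 2 of CX-5461 stood apart from the other 2 of its group on principal component 2, which held 2.83% of the variance, and every member called higher or lower in the fit of all 6 libraries was also called, in the same direction, without it.

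Most p53 effector targets were higher with CX-5461, and a smaller set was lower. Of the 29 members with enough counts to be tested, 21 rose, 4 fell and 4 did not pass an adjusted p of 0.05 in edgeR's quasi-likelihood test across all genes. Among all 12198 genes tested, 37.2% were called higher and 36.5% lower (73.7% in either direction). The median log2 change of the tested members was 0.53, beside -0.005 for all genes tested. At least 2-fold, 10 members rose and 1 fell, where 11.7% of all genes rose and 4.16% fell by that much. Fas is counted among the 21 and the 10, although it passed the filter on low counts only through the CX-5461 libraries. The libraries of the groups did not overlap for 25 members, beside 76.2% of all genes. The 4 members that fell were Xpc, Rrm2b, Fdxr and Plk3, and those that did not pass were Ddb2, Sesn1, 9630033F20Rik and Gdf15. Trp53i11, a p53-induced gene of little-known function, was not tested, since it had 1 count in DMSO replicate 3 and none in the other 5 libraries. In bulk RNA, fewer cells with a transcript and less of it per cell cannot be told apart.

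**Figure D1:**
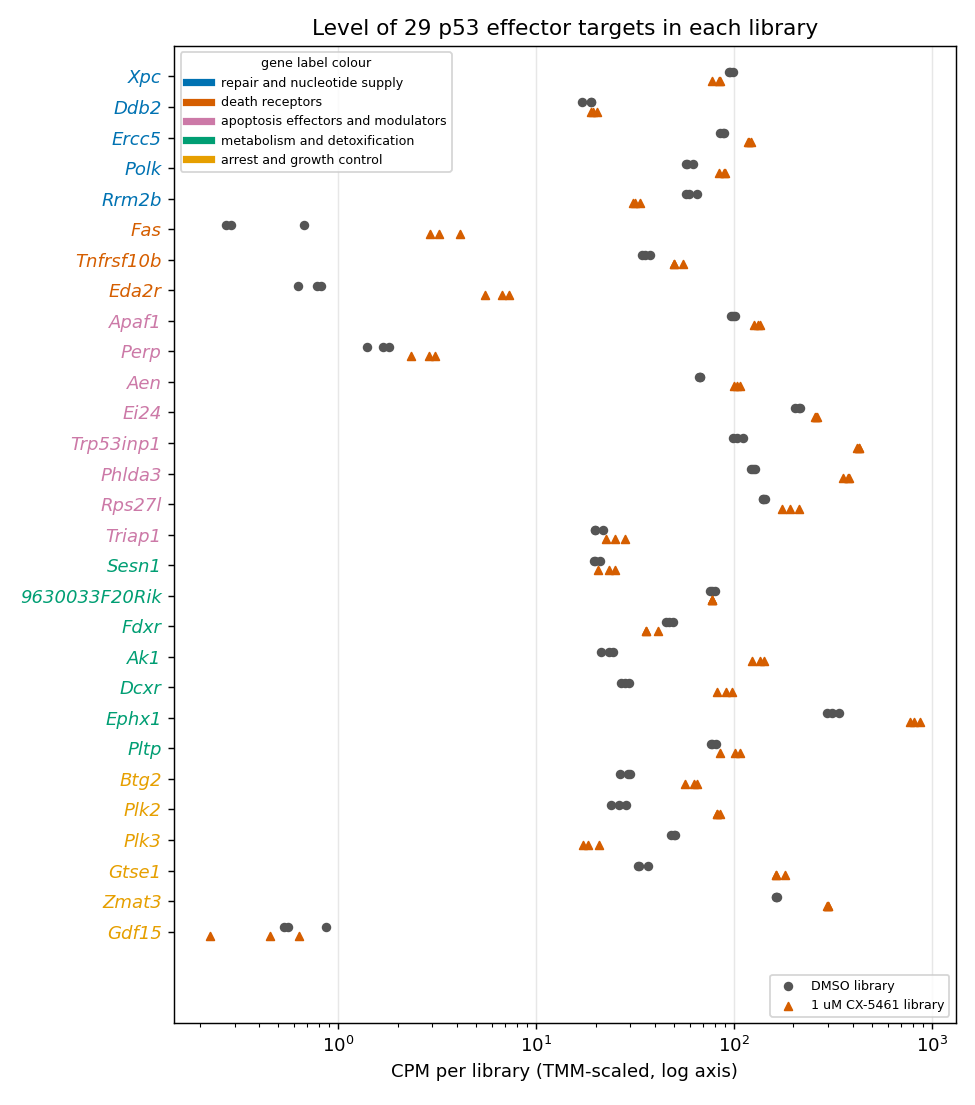
Level of the 29 tested p53 effector targets in each of the 6 libraries, in CPM on a log axis; grey circles are the 3 DMSO libraries and orange triangles the 3 CX-5461 libraries, and gene names are coloured by function. The triangles lie clear of the circles for 25 genes, to the left of them for Xpc, Rrm2b, Fdxr and Plk3.

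**Figure D2:**
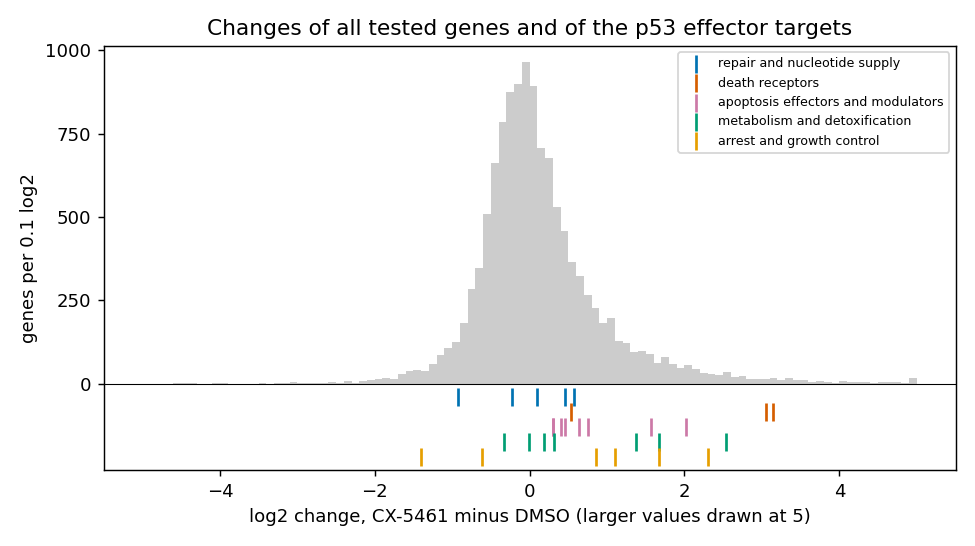
Distribution of the log2 change (CX-5461 minus DMSO) over the 12198 genes tested, as genes per bin, with the p53 effector targets drawn as ticks below it by function. The ticks of the apoptosis group lie between 0.30 and 2.02, whereas the other groups, apart from the 3 death receptors, have members on both sides of 0.

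The 3 death receptors all rose, where 37.2% of all genes tested were called higher. Fas, the receptor of the FAS ligand, and Eda2r, the receptor of ectodysplasin A2, showed the largest changes of any members, although both stayed rare transcripts. Fas was at 0.273, 0.290 and 0.670 CPM in the DMSO libraries (5, 6 and 12 counts) and at 2.93, 4.14 and 3.23 CPM in the CX-5461 libraries (65, 72 and 64 counts). Every CX-5461 library was thus above every DMSO library, and Fas rose 8.30-fold (log2 3.05 ± 0.30, SE, adjusted p = 2.044e-07). Under DMSO only replicate 3 reached the filter's minimum count of 10. Fas therefore entered the test through the CX-5461 libraries, where it was high, and its fold rests on few DMSO counts. Eda2r was at 0.819, 0.627 and 0.782 CPM under DMSO and at 7.29, 5.52 and 6.72 CPM under CX-5461. It rose 8.81-fold (log2 3.14 ± 0.20, adjusted p = 1.711e-09), again with no overlap between the groups. Tnfrsf10b, which encodes the TRAIL receptor, rose less, from 34.4, 35.6 and 37.5 CPM to 50.1, 49.9 and 55.4 CPM, or 1.45-fold (adjusted p = 1.708e-06). Per kilobase of exon, the CX-5461 mean of Tnfrsf10b was 9.50 CPM, against 1.67 for Fas and 1.11 for Eda2r. Tnfrsf10b is known as a target of the stress factor CHOP as well as of p53, and the CHOP gene Ddit3 moved the opposite way, from 653.0 to 698.4 CPM across the DMSO libraries to 163.2 to 189.4 CPM across the CX-5461 libraries. The part of Ddit3 in the level of Tnfrsf10b was not tested. Tnfrsf22 and Tnfrsf23, which encode decoy receptors for TRAIL in the mouse, were both called lower. Tnfrsf22 was at 15.3, 15.2 and 17.3 CPM under DMSO and 7.70, 4.95 and 6.37 CPM under CX-5461 (log2 -1.31 ± 0.13, adjusted p = 2.395e-07). Tnfrsf23 was rare, with 20, 17 and 18 counts under DMSO and 16, 7 and 11 under CX-5461 (log2 -0.75 ± 0.31, adjusted p = 0.04117). CX-5461 replicate 2, with 7 counts, was below the filter's minimum count, so Tnfrsf23 entered the test through the DMSO libraries. Tnfrsf23 did not pass with DESeq2 (adjusted p = 0.131), nor without replicate 1 or 3 of DMSO (0.1266 and 0.09156) or replicate 2 or 3 of CX-5461 (0.1333 and 0.08702). It also failed in edgeR without a filter on low counts (0.06095) and with an offset for gene span (0.07195, or 0.0654 with a replicate block). At a threshold of 0.01 it failed as well.

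All 8 tested members among the apoptosis effectors and modulators rose, with changes from 0.30 to 2.02 on the log2 scale. Of all genes tested, 37.2% were called higher. Trp53inp1, a stress protein that acts with p53 and in autophagy, changed most. Its level was 99.3, 104.0 and 110.8 CPM under DMSO and 427.4, 427.0 and 420.5 CPM under CX-5461, which was 4.06-fold higher (log2 2.02 ± 0.05, adjusted p = 2.646e-14). Phlda3, which competes with AKT for membrane lipids, went from 125.5, 121.9 and 127.5 CPM to 354.2, 382.8 and 378.4 CPM, or 2.98-fold (adjusted p = 2.232e-13). In both genes the gap between the groups was many times the spread within them. The other 6 rose by less than 2-fold. Aen, a nuclease that promotes apoptosis, rose 1.55-fold, with 66.9 ± 0.478 CPM in the DMSO group and 103.8 ± 3.49 CPM in the CX-5461 group (SD, 3 libraries each). Apaf1, the scaffold of the apoptosome, rose 1.33-fold from 99.2 ± 2.18 CPM, and Ei24, a membrane protein of the endoplasmic reticulum linked to autophagy, rose 1.24-fold from 210.6 ± 7.23 CPM. Perp, a membrane protein of desmosomes, was rare, with 25 to 35 counts per DMSO library and 50 to 61 per CX-5461 library, and rose 1.68-fold (log2 0.75 ± 0.20, adjusted p = 0.003238).

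A pair of genes in this group encode small proteins. Triap1, an inhibitor of apoptosis in the mitochondrial intermembrane space, spans 2.35 kb and had the smallest rise of any member that was called higher. It was at 19.8, 19.98 and 21.8 CPM under DMSO and 22.5, 25.1 and 28.2 CPM under CX-5461, so that the groups were parted by less than the range within the CX-5461 group (1.23-fold, adjusted p = 0.006683). Rps27l, a p53-induced relative of the ribosomal protein gene Rps27, rose 1.37-fold from 141.1 ± 2.21 to 193.6 ± 18.9 CPM. Its coding sequence matches that of Rps27 at 76.2% of 252 aligned bases, and whether reads of either gene were miscounted was not tested. The genes moved in opposite directions, since Rps27 was at 3.09 to 3.88 CPM under DMSO and 1.36 to 2.16 CPM under CX-5461 (log2 -0.84 ± 0.20, adjusted p = 0.001503). Per kilobase of exon, Rps27l held 172.9 CPM under DMSO and Rps27 only 3.23, although ribosomal protein genes are known as abundant transcripts. How reads of related genes were assigned is not given in the sources used, and its part in these levels was not tested.

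The repair genes went both ways and none changed as much as 2-fold. Ercc5, the endonuclease XPG of nucleotide excision repair, rose from 88.8, 85.2 and 88.4 CPM to 118.2, 121.3 and 119.5 CPM, or 1.37-fold (adjusted p = 2.957e-07). Polk, which encodes the translesion polymerase kappa, rose 1.49-fold, from 59.1 ± 2.82 to 87.8 ± 2.98 CPM. Xpc, which recognises distorted DNA in the same repair pathway as Ercc5, fell from 94.6, 95.5 and 98.6 CPM to 77.3, 85.1 and 84.5 CPM (log2 -0.23 ± 0.05, adjusted p = 9.473e-04). Its groups did not overlap, yet the change was smaller than that of any other member called lower. Ddb2, which recognises ultraviolet lesions together with Ddb1, was at 17.1 to 19.0 CPM under DMSO and 18.9 to 20.2 CPM under CX-5461 and did not pass (log2 0.09 ± 0.08, adjusted p = 0.3112). Of its exonic bases, 23.8% overlap Acp2 on the opposite strand, and whether strand was used in counting is not given in the sources used here. Acp2, the lysosomal acid phosphatase gene, was at 102.2 ± 0.839 CPM under DMSO and 92.8 ± 3.98 CPM under CX-5461, and was called lower (log2 -0.14 ± 0.05).

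Rrm2b encodes the p53-inducible small subunit of ribonucleotide reductase, which supplies deoxynucleotides outside S phase. It was at 59.7, 57.4 and 65.3 CPM under DMSO and 33.6, 30.8 and 31.5 CPM under CX-5461. All CX-5461 libraries thus lay below all DMSO libraries, by 1.90-fold (log2 -0.92 ± 0.06, adjusted p = 3.933e-09). Only 4.89% of all tested genes had a lower log2 change than Rrm2b. Its S-phase counterpart Rrm2 rose from 41.4 to 45.7 CPM across the DMSO libraries to 190.1 to 236.8 CPM across the CX-5461 libraries (log2 2.31 ± 0.07, adjusted p = 5.432e-13). Per kilobase of exon, Rrm2b went from 6.66 to 3.50 CPM and Rrm2 from 15.5 to 76.7 CPM. The exonic length, with the exons of all transcripts merged, was 9.13 kb for Rrm2b and 2.77 kb for Rrm2. Without that division Rrm2b was the higher of the pair under DMSO, with means of 60.8 and 42.9 CPM. Their coding sequences match at 74.5% of 1050 aligned bases.

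Of the 7 metabolic and detoxifying genes, 4 rose (57.1%), 1 fell (14.3%) and 2 did not pass. Among all genes tested, 37.2% were called higher and 36.5% lower (73.7% in either direction). Ak1, the cytosolic adenylate kinase, changed most, from 23.4, 21.2 and 24.5 CPM to 123.5, 135.5 and 141.1 CPM, or 5.80-fold (log2 2.54 ± 0.07, adjusted p = 7.424e-14). Dcxr, a carbonyl and xylulose reductase, went from 29.5, 28.2 and 26.8 CPM to 81.8, 97.8 and 91.2 CPM, or 3.20-fold (adjusted p = 1.014e-11). Ephx1, the microsomal epoxide hydrolase, rose 2.59-fold, from 296.2, 312.9 and 337.9 CPM to 772.4, 871.1 and 810.6 CPM (adjusted p = 7.936e-12). In all 3 the lowest CX-5461 library was more than 2 times the highest DMSO library. Ephx1 had the highest level per kilobase of exon of all members with CX-5461, at 419.5 CPM, followed by Phlda3 at 238.5 and Rps27l at 237.3. With DMSO the order was Rps27l at 172.9, Ephx1 at 161.9 and Phlda3 at 80.2. Pltp, the phospholipid transfer protein gene, rose 1.25-fold (adjusted p = 9.121e-04), from 76.6 to 81.3 CPM across the DMSO libraries to 84.8, 107.4 and 101.2 CPM. Its exons share 19.3% of their bases with Ctsa on the opposite strand, which was itself called higher (log2 0.13 ± 0.04) from 288.8 ± 6.58 CPM.

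Fdxr, the mitochondrial ferredoxin reductase, fell from 47.3, 45.5 and 49.1 CPM to 36.1, 41.2 and 36.1 CPM, or 1.25-fold (adjusted p = 3.601e-04). The gene that the table lists as 9630033F20Rik, named Tigar in RefSeq, encodes a phosphatase that slows glycolysis. Its values were 75.7, 80.4 and 77.4 CPM under DMSO and 77.6, 77.6 and 77.4 CPM under CX-5461, so that all CX-5461 libraries lay within the DMSO range (log2 -0.01 ± 0.05, adjusted p = 0.9071). Sesn1, a sestrin that restrains mTORC1, was at 19.6 to 21.1 CPM under DMSO and 20.7, 23.3 and 25.2 CPM under CX-5461, with groups that overlapped (log2 0.19 ± 0.08, adjusted p = 0.05993). Without CX-5461 replicate 1 it passed as higher, at 0.26 (adjusted p = 0.01267, up to 0.9503 over all alternatives). With a gene-span offset, which levels the trend of change with genomic length, it took the opposite sign, at -0.008 (adjusted p = 0.9367). The other sestrin genes differed from it: Sesn3 rose by 0.88 ± 0.07, and Sesn2, also an ATF4 target, was at 165.2 to 174.9 CPM under DMSO and 165.3 to 170.9 CPM under CX-5461 (adjusted p = 0.9415).

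**Figure D3:**
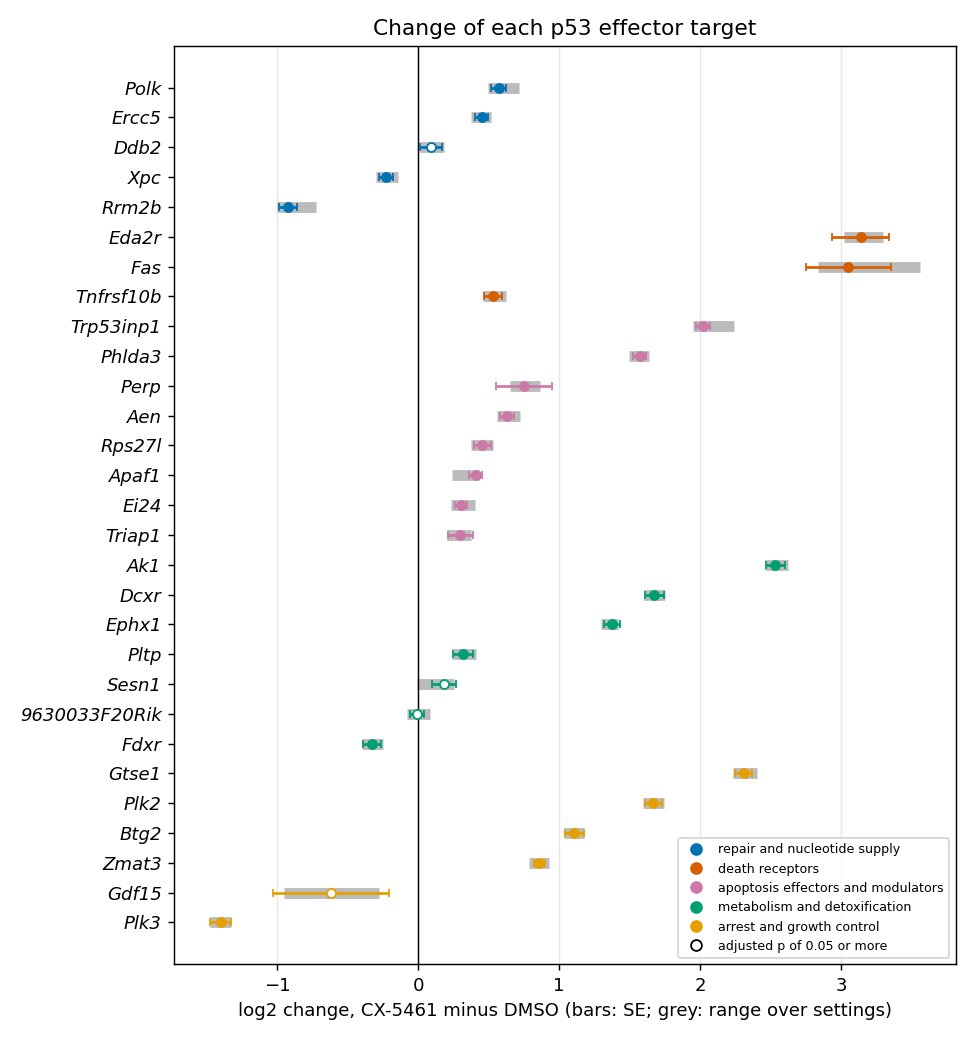
Log2 change of each tested p53 effector target (CX-5461 minus DMSO), with its standard error as a bar, the range over all processing settings in grey, and open symbols where the adjusted p was 0.05 or more. The grey ranges of the 25 called genes stay on one side of 0, from Eda2r at 3.14 to Plk3 at -1.40.

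Among the 6 genes of arrest and growth control, 4 rose (66.7%), 1 fell (16.7%) and 1 did not pass. Of all genes tested, 37.2% were called higher and 36.5% lower. Gtse1, a microtubule-bound protein of S and G2 phase that restrains p53, was at 32.8, 33.0 and 36.9 CPM under DMSO and 162.9, 164.0 and 181.7 CPM under CX-5461. It rose 4.96-fold (log2 2.31 ± 0.06, adjusted p = 8.945e-14), with no overlap between the groups. Genes of proliferating cells moved the same way: E2f1 rose by 2.32 ± 0.09, Top2a by 1.18 ± 0.08 and Mki67 by 0.75 ± 0.07 on the log2 scale. Their part in the level of Gtse1 was not tested. Btg2, a restraint on proliferation that acts with the mRNA deadenylase complex, rose from 26.7, 29.1 and 29.98 CPM to 56.9, 63.0 and 65.2 CPM, or 2.16-fold (adjusted p = 9.332e-10). Zmat3, a zinc-finger protein that binds RNA, rose 1.82-fold from 163.9 ± 0.613 to 297.6 ± 1.93 CPM, with the libraries of each group within a few CPM of each other.

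The polo-like kinases Plk2 and Plk3, both stress-responsive members of the family, moved in opposite directions. Plk2 rose from 23.9, 26.2 and 28.4 CPM to 84.8, 82.4 and 82.4 CPM, or 3.18-fold (log2 1.67 ± 0.06, adjusted p = 3.218e-12). Plk3 fell from 50.2, 50.04 and 48.3 CPM to 18.4, 20.8 and 17.2 CPM, or 2.64-fold (log2 -1.40 ± 0.07, adjusted p = 1.198e-10). Per kilobase of exon, the DMSO means were 19.6 CPM for Plk3 and 5.83 CPM for Plk2, and the CX-5461 means 7.44 and 18.5 CPM, so that the order of the pair turned. Only 1.80% of all tested genes had a lower log2 change than Plk3. The mitotic kinase Plk1 rose by 1.10 ± 0.07 and the centriole kinase Plk4 by 0.32 ± 0.08.

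Gdf15, a secreted stress hormone of the TGF-beta superfamily, was barely detected. It had 16, 11 and 10 counts in the DMSO libraries and 5, 11 and 9 in the CX-5461 libraries, or 0.654 ± 0.191 and 0.438 ± 0.204 CPM, so that the groups overlapped (log2 -0.62 ± 0.41, adjusted p = 0.1866). Gdf15 is also known as a target of ATF4 and CHOP, and the Atf4 transcript was at 1255 to 1282 CPM under DMSO and 615.9 to 657.2 CPM under CX-5461 (log2 -1.01 ± 0.04, adjusted p = 1.327e-11). Whether this bears on Gdf15 was not tested.

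Of 13 tested relatives and partners of members, 6 were called higher (46.2%) and 7 lower (53.8%). Among all genes tested, 37.2% were called higher and 36.5% lower (73.7% in either direction), so a call alone was common. The 7 include the TRAIL decoy receptors given above, of which Tnfrsf23 lost its call under several alternatives. Btg1, the closest relative of Btg2, fell (log2 -1.30 ± 0.06, adjusted p = 3.368e-11). Phlda1 and Phlda2, relatives of Phlda3, fell as well, by log2 values of -0.95 ± 0.04 and -2.84 ± 0.21. Trp53inp2, the relative of Trp53inp1, rose by 0.31 ± 0.04. In each of these 3 families the member was higher in every CX-5461 library than in any DMSO library. Ddb1, the partner of Ddb2, rose by 0.20 ± 0.04, and the repair helicase gene Ercc2 changed by -0.33 ± 0.06.

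**Figure D4:**
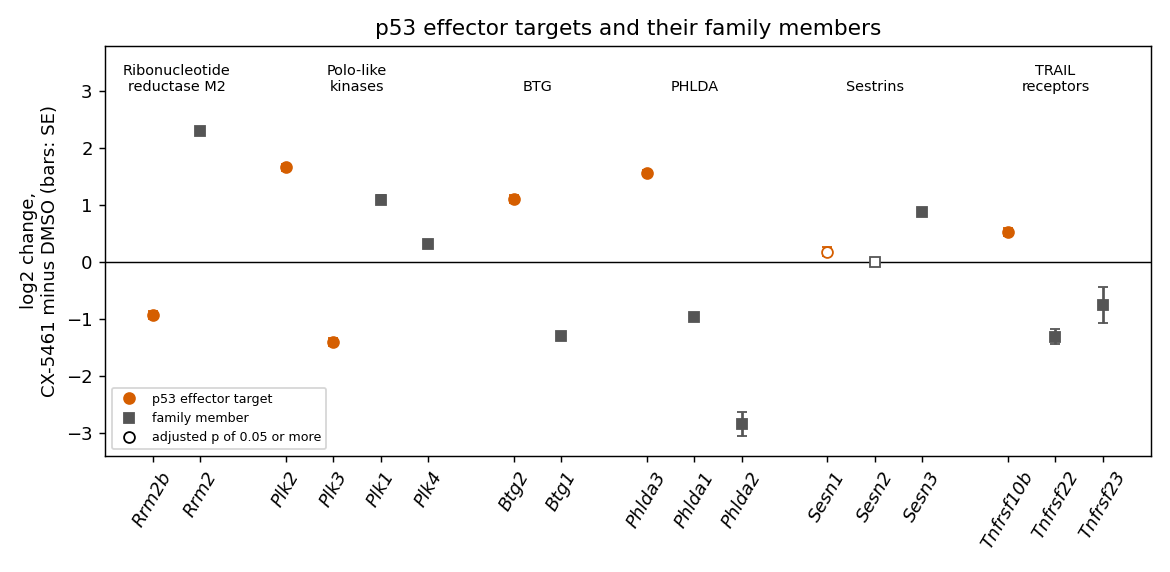
Log2 change (CX-5461 minus DMSO) with its standard error for members (orange circles) and other genes of the same family (grey squares), with open symbols where the adjusted p was 0.05 or more. Rrm2b and Rrm2, Plk2 and Plk3, Btg2 and Btg1, Phlda3 and its relatives, and Tnfrsf10b and the decoy receptors lie on opposite sides of 0.

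Further lists from the rest of the pathway were set beside these genes. Of 9 tested genes of the p53 feedback circuit, 4 rose (44.4%), 3 fell (33.3%) and 2 did not pass. Of all genes tested, 37.2% were called higher and 36.5% lower. Over the alternative settings, 3 to 5 of the circuit genes were called higher and 3 to 4 lower. Ccng1, which encodes cyclin G, rose by 2.12 ± 0.06, Cdkn1a by 1.29 ± 0.04 and Mdm2 by 1.10 ± 0.04, and Trp53 itself changed by -0.52 ± 0.05 (log2, SE). The Trp53 transcript was at 207.1, 199.6 and 202.2 CPM under DMSO and 146.5, 130.6 and 148.5 CPM under CX-5461, so that the regulator's own message was lower in all 3 CX-5461 libraries. Of 27 tested p53 targets outside both the members and that circuit, 19 rose and 5 fell (3 not passed), and the median was 0.46. Kitl, among the 19, had 6, 5 and 14 counts under DMSO and 42, 41 and 40 under CX-5461. Like Fas, it entered the test through the CX-5461 libraries, where it was high. The abundant targets of this list that rose most were Sulf2, a heparan sulfate sulfatase (3.58 ± 0.08), Psrc1, a spindle protein (1.69 ± 0.05), and Cpt1c, a carnitine palmitoyltransferase (1.18 ± 0.06). Those that fell most were Prkab2, a subunit of AMP-activated kinase (-1.38 ± 0.07), the tetraspanin gene Cd82 (-0.99 ± 0.05), and Ddit4, which restrains mTORC1 and also answers to ATF4 (-0.45 ± 0.05).

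The promoters of the members were read for the sequence that p53 binds, a decamer half-site made of purines, a core of C, A or T bases and G, and pyrimidines. RefSeq windows of build GRCm38.p6, from 250 bases before to 50 after a start site, were found for 23 of the 30 members, 32 windows in all. Xpc, Ddb2, Rrm2b, Tnfrsf10b, Perp, Trp53inp1 and Zmat3 had none. A half-site stood in 7 of the 32 windows, from 6 genes, where 8.36% of all 32851 windows hold one. The 2 windows of Aen overlap and hold the same half-site, which is counted in both, and overlapping windows were likewise counted one by one among all windows. The search allowed no mismatch. A pair of exact half-sites with 0 to 13 bases between them stood in none of the 32 and in 0.0731% of all windows. One such window was that of Cdkn1a. Pairs with a mismatch were not counted, so the result does not mean that paired sites are absent. In Rps27l, for example, a decamer that misses the pattern only at its last base directly precedes the printed half-site. Half-sites are printed in capitals, on the strand of each gene from 5′ to 3′. They are shown because 5 genes that rose and Sesn1, which did not pass, carry the same kind of decamer. The exact half-sites of Cdkn1a are printed for comparison. Capitals mark exact matches only and do not settle which stretches p53 binds as a pair. In Cdkn1a, the decamer directly after the last capitals misses the pattern only at its first base and stays in lower case.
Aen: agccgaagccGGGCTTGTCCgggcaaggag
Ei24: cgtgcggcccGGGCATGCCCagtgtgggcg
Gtse1: gagcaagttgGGGCTTGCCTctgacttgcc
Rps27l: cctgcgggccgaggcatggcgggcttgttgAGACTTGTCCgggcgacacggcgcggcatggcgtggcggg
Polk: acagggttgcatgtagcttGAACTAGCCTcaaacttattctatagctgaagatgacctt
Sesn1: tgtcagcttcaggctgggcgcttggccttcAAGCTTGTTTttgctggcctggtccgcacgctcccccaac
Cdkn1a: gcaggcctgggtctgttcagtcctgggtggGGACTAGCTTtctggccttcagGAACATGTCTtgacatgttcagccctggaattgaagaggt

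The printed stretches lie at chr7:78895927-78895956 (Aen, plus strand), chr9:36797325-36797354 (Ei24, minus), chr15:85859945-85859974 (Gtse1, plus), chr9:66946276-66946345 (Rps27l, plus), chr13:96519379-96519437 (Polk, minus), chr10:41887236-41887305 (Sesn1, plus) and chr17:29090876-29090967 (Cdkn1a, plus). By the GENCODE annotation of the same build, the half-sites of Aen, Ei24 and Gtse1 lie in untranslated exon sequence, and those of Rps27l, Polk and Sesn1 in introns of longer transcripts. That of Cdkn1a lies upstream of the gene. Rps27l has another half-site in the same window that is not shown. Among the genes printed, Gtse1 rose 4.96-fold, Aen, Polk, Rps27l and Ei24 rose between 1.24-fold and 1.55-fold, and Sesn1 did not pass. Trp53inp1 had no window. Fas, Eda2r, Ak1, Dcxr, Plk2 and Phlda3, with rises of 2.98-fold to 8.81-fold, had no half-site in theirs. Nor had Ephx1 (2.59-fold) and Btg2 (2.16-fold). A match describes letters only, and a window without one says nothing of sites elsewhere in the gene.

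Other motifs were sought on both strands of the same 32 windows. The E2F motifs TTTCCCGC and TTTGGCGC stood in none, beside 1.07% and 0.514% of all windows. The cell-cycle motif TTTGAA stood in 5 windows (Ercc5, Fas, Aen, Fdxr and Gdf15), beside 17.9% of all, and the C/EBP-ATF motif TGATGCAA in 1, that of Polk, beside 0.895%. Gtse1, which rose as the proliferation genes named above did, held none of these 4 motifs. Each motif was absent from most of all windows, and only exact matches were sought. Its absence therefore does not bear on what controls Gtse1, which was not tested.

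The members that changed most were neither uniformly short nor long genes. Fas (chromosome 19, 34290666 to 34327772) spans 37.1 kb and Eda2r (chromosome X, 97333840 to 97377216) 43.4 kb, whereas Phlda3 (chromosome 1, 135766119 to 135769136) spans 3.02 kb and Dcxr (chromosome 11, 120725399 to 120727281) 1.88 kb. Trp53inp1 lies on chromosome 4 (11156431 to 11174379), Ak1 on chromosome 2 (32621758 to 32635058) and Gtse1 on chromosome 15 (85859745 to 85876573). Of the genes that fell, Plk3 lies on chromosome 4 (117128655 to 117133963) and Rrm2b on chromosome 15 (37923952 to 37961318), all in GRCm38. The tested members had a median span of 17.9 kb, beside 24.2 kb for all genes tested. The longest member, Sesn1, spans 98.5 kb. All genes tested of up to 10, 10 to 25, 25 to 50 and 50 to 100 kb had median log2 changes of -0.07, -0.09, -0.07 and 0.04. Genes of 200 to 400 kb, a class that holds no member, had a median of 0.97.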

How the data were processed

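The deposited file holds whole-number read counts per protein-coding gene for 6 libraries, which the authors had not normalized, as column totals differ. Per the submitters' processing notes the build was GRCm38 (mm10). The sources used here give no aligner, counting tool or use of strand. Columns were mapped to samples by their description labels. Genes were filtered with filterByExpr (minimum count 10), which left 12198, scaled by TMM and tested with edgeR 4.0.16 (quasi-likelihood F test, two-sided, R 4.3.3) on all 6 libraries, with Benjamini-Hochberg adjustment over all genes tested. Each standard error is the log2 change over the root of its F value. The test was checked on simulated data in which few genes changed and both groups had the same dispersion. These data differ in both respects, since 73.7% of genes were called and the CX-5461 libraries were less alike than the DMSO libraries. The check does not cover that setting. Spans, exon overlaps and exonic lengths come from GENCODE M21 (GRCm38), matched to 21919 of 22740 identifiers, and promoters from RefSeq. All members were named, with the 3 largest called rises and falls at 5 CPM or more among other p53 targets. Relatives of members that cannot be confused with one were named after their values were seen. The members and lists were chosen with earlier results of these data known. Alternatives were scaling by library totals only, by RLE or by upper quartiles, other filters, DESeq2 1.42.0, limma-voom (limma 3.58.1), a replicate block, GC and gene-span offsets with and without that block, an adjusted p of 0.01, and each library left out. The floor of 3 counts covers counting error only.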

Additional observations from a re-analysis of the deposited data

How the results depend on the processing

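All 25 called members kept their direction and call under each of the 19 alternatives. With library totals only the median change of the tested members was 0.46, that of all genes -0.08, and of all genes 3989 were higher and 5111 lower, against 4538 and 4448 with TMM. The signs of 3 genes that did not pass turned. Sesn1 took -0.008 with a gene-span offset and -0.0062 with that offset and a replicate block. For 9630033F20Rik the values were 0.002 with upper-quartile factors, 0.0819 with the gene-span offset (0.0828 with the block), and between -0.0307 and 0.0154 with a library left out. For Sesn2 they were 0.005 with upper-quartile factors, 0.0006 with a filter of 1 CPM in 3 libraries, 0.0913 and 0.0914 with the gene-span offset without and with the block, and between -0.0238 and 0.0168 with a library left out; the cause was not tested. No pairing by replicate number was seen. Same-numbered libraries correlated at 0.0364, 0.0037 and -0.0084 in their deviations from the group means, and differently numbered ones between -0.0405 and 0.0347. The highest value was that of the libraries numbered 1, followed by DMSO replicate 3 with CX-5461 replicate 2. Values so near 0 cannot show that the libraries were unpaired. With the replicate block 21 members were higher and 4 lower, with a median of 0.53, and of all genes 4537 were higher and 4464 lower. The members with the fewest counts were Trp53i11, Fas, Gdf15, Eda2r and Perp, and their values are the least precise.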
